A study of Mus musculus with 4 samples.

Results

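The mitosis and spindle genes described here are 40 genes of G2 and M phase, the spindle and the kinetochore. They were chosen as a list of gene symbols with no threshold on measured values, but with earlier results of these data known. All 40 were among the 14157 genes of the deposited table, and all 40 reached a scaled read value of 1 or more in 2 or more libraries, the filter for testing, as did 12304 genes in all. RNA came from esophageal tumours that the carcinogen 4NQO (4-nitroquinoline 1-oxide) had induced in C57BL/6 mice, and every sample, controls included, is such a tumour. The WT group holds 2 wild-type libraries (replicates 3 and 6), and the KO group holds 2 libraries whose genotype is labelled S100A14 CKO (replicates 1 and 8). S100a14 encodes a calcium-binding protein of the S100 family. The sources used here name neither the promoter or cell type behind the conditional deletion nor the ages of the mice, and do not say whether each library is a separate animal. The p-values therefore measure the spread between these tumour samples, which may not be the spread between animals. Below, a pair of WT values belongs to replicates 3 and 6 and a pair of KO values to replicates 1 and 8, in that order.

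A cell enters mitosis when CDK1 bound to B-type cyclins becomes active, and Polo and Aurora kinases then drive centrosome separation, spindle assembly and chromosome alignment. Kinetochores that lack a microtubule keep the spindle assembly checkpoint on. Once it is satisfied, the anaphase-promoting complex (APC/C) with CDC20 marks securin and cyclin B for destruction, separase cuts cohesin, and a central spindle guides cytokinesis. The genes for these proteins are transcribed late in the cell cycle, so their RNA in a tissue reflects both how many cells are cycling and how much each makes. In squamous epithelium such as that of the esophagus, dividing cells are found in the basal layers. In bulk tumour RNA, fewer cells of a type and less RNA per cell cannot be told apart.

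Many promoters of this class carry CCAAT boxes, which bind NF-Y, and a CHR element (cell cycle genes homology region) near the transcription start, which binds the DREAM and MMB complexes. RefSeq promoter windows of GRCm38.p6, 250 bases before to 50 after a start, were matched by symbol for 33 of the 40 members, in 36 windows. On either strand, the CHR letters TTTGAA or TTCGAA were in 28 of the 36 windows (77.8%), against 19.2% of all 32851 windows in that table. The letters CCAAT were in 77.8% of the members' windows and in 37.4% of all windows, and both elements together in 69.4% and 7.52%. GGCGG, a CDE-like run that can share bases with an inverted CCAAT, was in 88.9% and 48.8%. Matches of letters are a description, not binding sites. The windows below, from 150 bases before to 30 after the start, belong to the 3 members with the largest and the 3 with the smallest KO minus WT difference among members with 1 window, and CHR and CCAAT letters are in capitals.
Kif23 (chr9:61946770-61946949, minus strand): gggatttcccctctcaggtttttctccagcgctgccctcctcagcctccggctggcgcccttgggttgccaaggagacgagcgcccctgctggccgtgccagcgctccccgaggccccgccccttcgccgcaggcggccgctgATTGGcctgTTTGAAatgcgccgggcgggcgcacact
Cenpf (chr1:189688057-189688236, minus strand): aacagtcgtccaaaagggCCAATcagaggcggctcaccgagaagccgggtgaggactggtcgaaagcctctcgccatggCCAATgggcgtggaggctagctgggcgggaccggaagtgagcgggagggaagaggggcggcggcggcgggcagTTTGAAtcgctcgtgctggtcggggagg
Bub1 (chr2:127831830-127832009, minus strand): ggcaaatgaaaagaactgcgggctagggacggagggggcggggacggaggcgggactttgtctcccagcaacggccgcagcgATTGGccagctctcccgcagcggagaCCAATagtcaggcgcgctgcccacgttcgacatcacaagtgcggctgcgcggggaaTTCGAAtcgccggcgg
Plk1 (chr7:122159285-122159464, plus strand): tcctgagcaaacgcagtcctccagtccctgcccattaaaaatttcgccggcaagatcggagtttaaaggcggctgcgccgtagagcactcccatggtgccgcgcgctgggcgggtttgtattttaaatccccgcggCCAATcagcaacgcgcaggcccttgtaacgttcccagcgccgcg
Pttg1 (chr11:43425952-43426131, minus strand): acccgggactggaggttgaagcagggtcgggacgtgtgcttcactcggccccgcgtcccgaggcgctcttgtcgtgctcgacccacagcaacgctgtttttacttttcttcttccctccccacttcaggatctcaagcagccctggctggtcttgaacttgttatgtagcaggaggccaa
Espl1 (chr15:102296143-102296322, plus strand): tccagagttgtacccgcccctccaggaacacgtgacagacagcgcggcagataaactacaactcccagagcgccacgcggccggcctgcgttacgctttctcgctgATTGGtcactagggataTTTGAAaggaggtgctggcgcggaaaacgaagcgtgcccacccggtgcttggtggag
In Kif23 and Cenpf, TTTGAA starts at base 3 after the start of transcription, and in Bub1, TTCGAA starts at base 15. Espl1, at the other end of the list, holds TTTGAA 27 bases before the start, and Plk1 holds it 31 bases after the start, just past the printed window. The Pttg1 window holds neither CHR nor CCAAT letters. The median KO minus WT difference on the log2(value + 1) scale was 0.49 over the 25 members with CHR letters and 0.41 over the 8 without. Over the 636 tested genes with both elements, 48.0% were higher in KO, against 47.5% of the 9164 tested genes with a window.

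Over the genes of the deposited table, the libraries held 11132019 to 16182109 recovered reads. Of these, rRNA, mitochondrial rRNA included, took 47.0% to 76.4%, and 1052423 to 2107060 reads fell on nuclear protein-coding genes. Reads on the members numbered 6140 and 2218 in the WT pair against 6591 and 5068 in the KO pair, with a median of 36.5 reads per member in WT replicate 6 and 83 to 103 in the others. Values are the deposited scaled read values, in which 1 read equals 0.193 to 0.318. S100a14 had scaled values of 89.4 and 110.2 in WT against 0 and 0.258 in KO. KO replicate 8 stood apart, with Pearson's r of 0.769 to 0.816 with the other libraries over 12304 genes, against 0.908 to 0.915 among the others.

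The comparison asks whether tumours labelled S100A14 CKO carry different levels of these genes. None of the 40 members passed in limma, where 0.0% of the 12304 genes tested were called higher and 0.00813% lower in KO (adjusted p under 0.05). The 1 gene called lower was S100a14 itself (limma adjusted p = 0.0211). At an unadjusted p under 0.05 there was 1 member, Kif23, and 646 genes in all. edgeR's quasi-likelihood test, which called 0.0% of genes in either direction, and DESeq2, which called 0.188% higher and 0.274% lower, also called 0 of the 40. edgeR's test thus did not call S100a14, so a gene that did not pass is not thereby shown to be unchanged. The smallest limma adjusted p among the members was 0.910, for Kif23, and those of the other 39 ran from 0.926 to 0.998. In direction, 33 of the 40 members were higher in KO and 7 lower, with a median difference of 0.48 on the log2(value + 1) scale, against -0.03 over all genes tested, of which 47.5% were higher. Both KO libraries lay above both WT libraries for 13 members (32.5%; 14.5% of all genes tested) and below both for 2 (5.0%; 19.3% of all genes tested). All these counts rest on the same 4 libraries, and 1 low WT library recurs in them.

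That library was WT replicate 6. It was the lowest of the 4 libraries for 30 of the 40 members, against 22.8% of all genes tested, and 37 of 40 members were lower in it than in WT replicate 3, with a median difference of -0.67. Exact Poisson 95% intervals of the 2 WT libraries did not overlap for 21 of the 40 members. They treat reads as independent, which PCR copies are not, so they may be too narrow. Such intervals were computed for the members only. The median absolute gap between the WT libraries was 0.68 over the members and 0.48 over all genes tested. For 29 of 40 members (72.5%; 56.0% of all genes tested) the gap between the WT libraries exceeded the KO minus WT difference. The gap between the KO libraries exceeded it for 19 of 40 (47.5%, against 66.1% of all genes tested). A gap between single libraries varies more than a difference of group means. Leaving out WT replicate 6 left a median of 0.13 with 26 members higher, and leaving out WT replicate 3 gave 0.87 with 34 higher. Without KO replicate 8, the library that stood apart, the median was 0.48 with 29 members higher, and without KO replicate 1 it was 0.44 with 31 higher.

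Summed over the 40 members, the scaled value was 1185 and 705 in WT against 1449 and 1306 in KO. Both KO sums lay above both WT sums, and WT replicate 3 was nearer to the KO libraries than to WT replicate 6. A few genes weigh most in these sums: Mki67, Top2a and Cenpe made up 33.9% to 39.4% of each. Without Mki67 the sums were 961 and 558 in WT against 1132 and 995 in KO, so WT replicate 3 and KO replicate 8 lay close together. Over all 40 members, the ratio of the group means was 1.46 ± 0.535 (SD propagated from n = 2 per group). As a share of nuclear protein-coding reads, the members took 0.291% and 0.172% in WT and 0.431% and 0.482% in KO, a ratio of 1.97. With TMM scaling of nuclear protein-coding genes the ratio of the sums was 1.51, so its size depended on the scaling. An exact permutation test of 2 against 2 libraries cannot go below a two-sided p of 0.333.

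**Figure D1:**
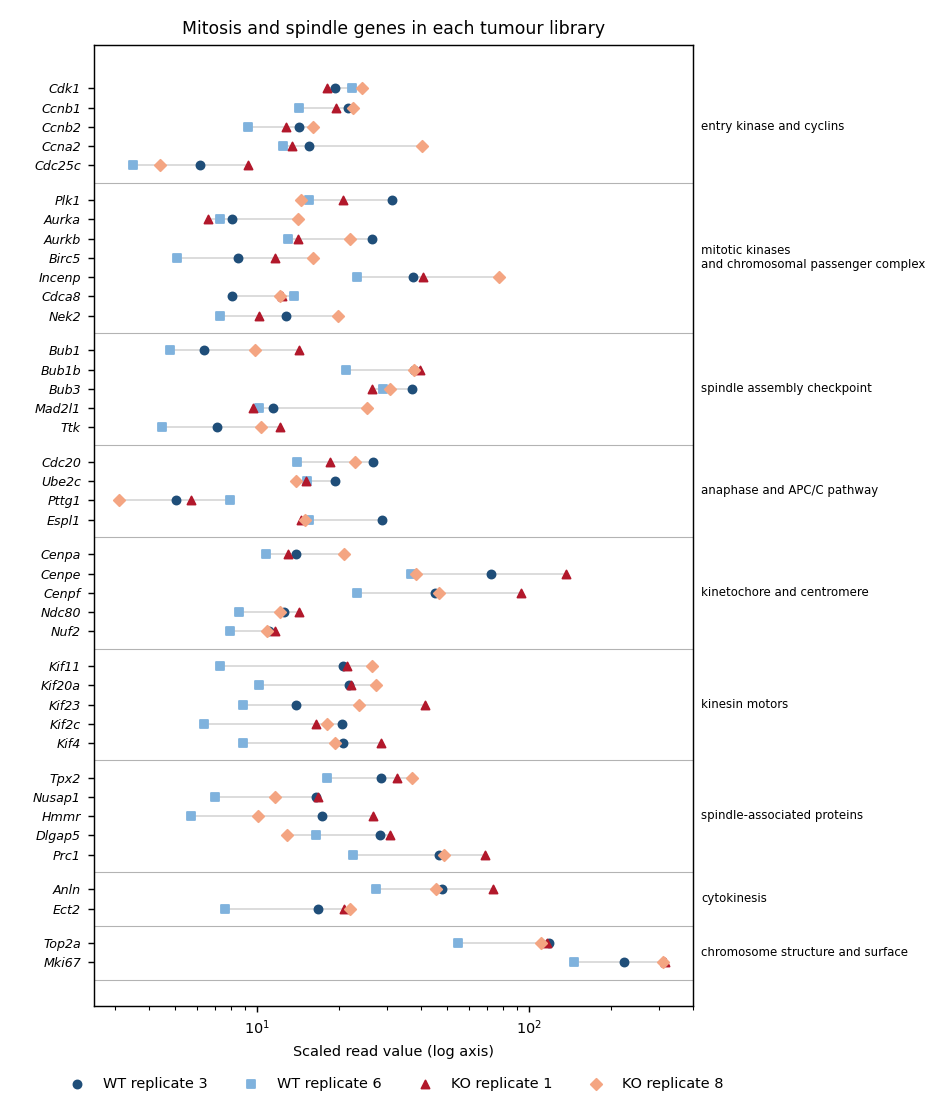
Scaled read value (log axis) of each of the 40 members in the 4 tumour libraries, grouped by role; each point is 1 library and grey lines join the lowest and highest. WT replicate 6 (light squares) is the lowest library for 30 of the 40 members, while Mki67 reaches 318 in KO replicate 1.

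**Figure D2:**
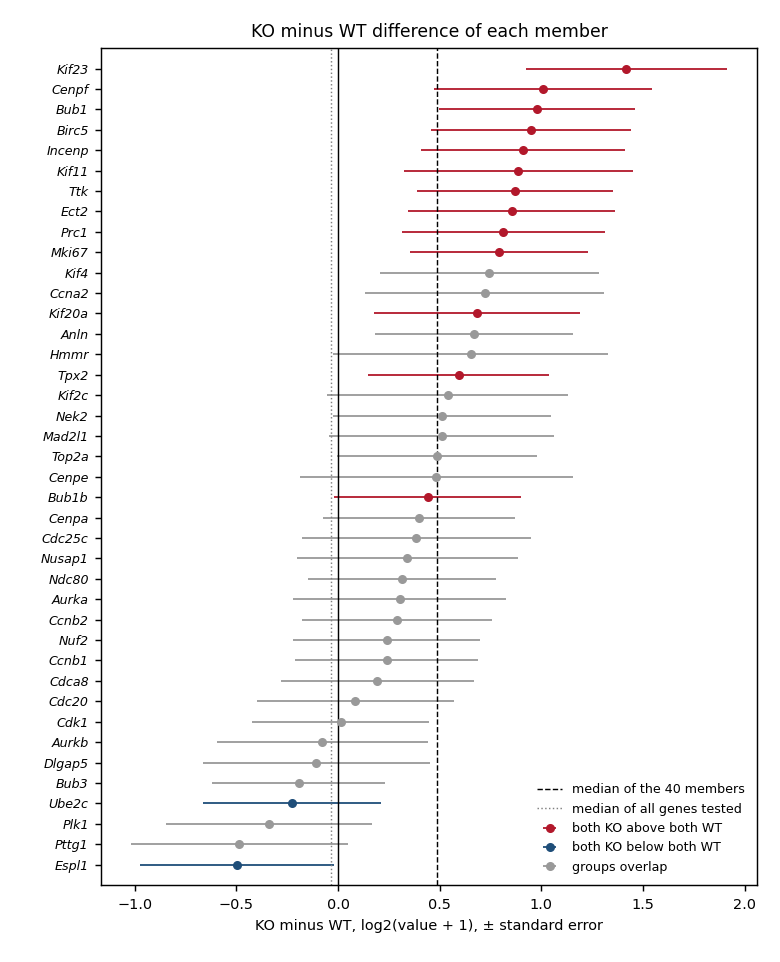
KO minus WT difference of each member on the log2(value + 1) scale, as the limma estimate with its standard error (n = 2 libraries per group), coloured by whether the groups overlap. The median of the members is 0.48 and that of all genes tested -0.03, and none of the 40 passed the threshold.

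Among the kinesin motors, all 5 members were higher on average in KO, and in 3 both KO libraries lay above both WT libraries, as they did in 14.5% of all genes tested. WT replicate 6 was the lowest library for all 5. Kif23 encodes MKLP1, the motor of the centralspindlin complex that bundles the central spindle and anchors the cytokinetic ring. Its scaled value was 13.9 and 8.90 in WT against 41.6 and 23.7 in KO. Both KO libraries were thus above both WT libraries, with a fold of group means of 2.86 and a difference of 1.42 (SE 0.49). Kif23 had the largest difference of the 40, at the 97.9th percentile of all genes tested. With each library left out in turn its difference lay between 1.025 and 1.81, and the authors' deposited table gives it a log2 fold change of 1.51 and an adjusted p of 0.380. In the same table the other 39 members had an adjusted p of 0.770 or more.

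Kif11, the tetrameric motor Eg5 that pushes spindle poles apart, had 20.7 and 7.31 in WT against 21.3 and 26.5 in KO. Kif20a, the MKLP2 motor that carries the chromosomal passenger complex to the central spindle, had 21.8 and 10.2 in WT against 22.2 and 27.3 in KO. In both genes WT replicate 3 was close to KO replicate 1, WT replicate 6 was low, and the group differences were 0.89 (SE 0.56) and 0.68 (SE 0.51). Without WT replicate 6 they were 0.196 and 0.169, and without WT replicate 3 they were 1.58 and 1.199. Kif4, the chromokinesin, had 20.7 and 8.90 in WT against 28.6 and 19.3 in KO. For Kif2c, the microtubule depolymerase MCAK, the values were 20.5 and 6.35 in WT against 16.5 and 18.0 in KO, so both genes overlapped between the groups.

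Both cytokinesis genes were higher on average in KO. Ect2, the RhoA exchange factor that centralspindlin recruits, had 16.8 and 7.63 in WT against 20.9 and 21.9 in KO, with no overlap (difference 0.85, SE 0.51). Anln, the anillin scaffold of the cleavage furrow, had 47.7 and 27.3 in WT against 73.7 and 45.6 in KO and overlapped. Prc1, which crosslinks the antiparallel microtubules of the central spindle, had 46.7 and 22.6 in WT against 68.8 and 48.7 in KO, with no overlap (difference 0.81, SE 0.50). In Prc1 the gap between WT replicate 3 and KO replicate 8 was small beside the spread of each group. Without WT replicate 6 the differences of Ect2 and Prc1 were 0.33 and 0.304, and without WT replicate 3 they were 1.38 and 1.32.

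The chromosomal passenger complex, in which Aurora B works with INCENP, survivin and borealin, held members on both sides. Birc5, the survivin gene, had 8.49 and 5.08 in WT against 11.7 and 15.98 in KO (difference 0.95, SE 0.49), and Incenp, the scaffold, had 37.4 and 23.2 in WT against 40.7 and 77.8 in KO (difference 0.91, SE 0.50). Neither overlapped between the groups, and with each library left out the differences lay between 0.63 and 1.27 and between 0.45 and 1.37. Aurkb, the kinase itself, had 26.4 and 13.0 in WT against 14.1 and 21.9 in KO, and Cdca8, the borealin gene, had 8.11 and 13.7 in WT against 12.3 and 12.1 in KO. These groups overlapped, with differences of -0.08 (SE 0.52) and 0.19 (SE 0.48). The ratio of Incenp to Aurkb within a library, a pair chosen after their values were seen, was 1.42 and 1.78 in WT against 2.89 and 3.55 in KO.

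Of the other mitotic kinases, Plk1, the Polo-like kinase of entry and spindle formation, was lower on average in KO, with 31.3 and 15.6 in WT against 20.7 and 14.4 in KO (difference -0.34, SE 0.51). Aurka, the kinase of spindle poles, had 8.11 and 7.31 in WT against 6.60 and 14.2 in KO, and the centrosomal kinase gene Nek2 had 12.7 and 7.31 in WT against 10.1 and 19.8 in KO. For both, KO replicate 8 alone was high and KO replicate 1 lay within or below the WT range.

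Spindle assembly checkpoint genes were higher on average in KO for 4 of 5 members (47.5% of all genes tested were), 3 of them without overlap (14.5% of all genes tested). Bub1, a kinase of the unattached kinetochore, had 6.37 and 4.77 in WT against 14.3 and 9.79 in KO, a fold of group means of 2.16 (difference 0.98, SE 0.48). Ttk, the MPS1 kinase that starts checkpoint signalling, had 7.14 and 4.45 in WT against 12.1 and 10.3 in KO (difference 0.87, SE 0.48). Both rest on few reads: Bub1 had 33, 15, 65 and 38 and Ttk 37, 14, 55 and 40 in the 4 libraries. Bub1b, the BUBR1 subunit of the mitotic checkpoint complex, had 37.6 and 21.3 in WT against 39.8 and 37.9 in KO, where the margin over WT replicate 3 was small, and its difference of 0.44 was 0.044 without WT replicate 6. Mad2l1, which encodes MAD2, had 11.4 and 10.2 in WT against 9.68 and 25.3 in KO. Bub3, the shared partner of BUB1 and BUBR1, was lower on average in KO (33.1 ± 5.90 in WT and 28.7 ± 3.21 in KO, SD, n = 2).

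The 4 members of the anaphase pathway had the lowest median of any role, -0.36. Espl1, which encodes separase, had 28.8 and 15.6 in WT against 14.5 and 14.9 in KO, both KO libraries below both WT libraries (difference -0.50, SE 0.48, the lowest of the 40). Its difference was -0.075 without WT replicate 3 and -0.92 without WT replicate 6. Pttg1, which encodes its inhibitor securin, had 5.02 and 7.94 in WT against 5.72 and 3.09 in KO, from 12 to 26 reads, and its difference of -0.48 ranged from -0.84 without KO replicate 1 to -0.127 without KO replicate 8. Ube2c, the APC/C's ubiquitin-conjugating enzyme UBCH10, had 19.3 and 15.3 in WT against 15.2 and 13.9 in KO. In Ube2c the groups did not overlap, but WT replicate 6 and KO replicate 1 were nearly equal. Cdc20, the APC/C activator, had 20.3 ± 8.95 in WT and 20.7 ± 3.15 in KO (SD, n = 2). Of these 4 genes 3 were lower in KO, against 4 of the other 36 members and 6454 of the 12304 genes tested. Below without overlap were 2 of the 4 (19.3% of all genes tested). Cdc20, Pttg1 and Ube2c have under 3000 bases of exon, a class in which 38.7% of all genes tested were higher in KO. The part of length here was not tested.

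The 5 entry genes were all higher on average in KO (47.5% of all genes tested were), with a median of 0.29. No gene was free of overlap (14.5% of all genes tested lay above and 19.3% below). Cdk1, the kinase of mitotic entry, had 19.3 and 22.2 in WT against 18.0 and 24.2 in KO, a difference of 0.01 (SE 0.44). Its cyclins Ccnb1 and Ccnb2 had 21.6 and 14.3 against 19.6 and 22.4, and 14.3 and 9.21 against 12.8 and 15.98. The ratio of Ccnb1 to Ccnb2 stayed between 1.403 and 1.55 in the 4 libraries. Ccna2, the cyclin of S and G2 phase, had 15.4 and 12.4 in WT against 13.4 and 40.5 in KO, a difference of 0.72 (SE 0.59) that was -0.042 without KO replicate 8. Cdc25c, a phosphatase that activates CDK1, had 6.18 and 3.50 in WT against 9.24 and 4.38 in KO.

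At the kinetochore all 5 members were higher on average in KO (47.5% of all genes tested were). Cenpf alone, 1 of the 5, did not overlap (20%; 14.5% of all genes tested lay above). Cenpf, a large protein of the kinetochore corona, had 45.0 and 23.2 in WT against 93.2 and 46.6 in KO (difference 1.01, SE 0.54), with KO replicate 8 close to WT replicate 3. The difference of Cenpf was 0.54 without WT replicate 6, 0.51 without KO replicate 1 and 1.499 without KO replicate 8. Cenpe, the kinetochore kinesin that aligns chromosomes, had 72.6 and 36.9 in WT against 137 and 38.4 in KO. In Cenpe the KO libraries thus lay on either side of WT replicate 3. Cenpa, the centromeric histone, had 12.3 ± 2.19 in WT and 16.9 ± 5.58 in KO, and Ndc80 and Nuf2, which form the microtubule-binding NDC80 complex, had 10.6 ± 2.81 against 13.2 ± 1.54 and 9.47 ± 2.16 against 11.2 ± 0.588 (SD, n = 2). The differences of Ndc80 and Nuf2 were 0.31 (SE 0.46) and 0.24 (SE 0.46).

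Spindle-associated proteins varied by library. Tpx2, which activates Aurora A on the spindle, had 28.6 and 18.1 in WT against 32.8 and 37.1 in KO, with no overlap (difference 0.59, SE 0.45, and 0.28 without WT replicate 6). Hmmr, a microtubule-binding protein of spindle poles, had 17.4 and 5.72 in WT against 26.6 and 10.1 in KO. Dlgap5, the spindle protein HURP, had 28.2 and 16.5 in WT against 30.8 and 12.9 in KO. In Hmmr and Dlgap5 KO replicate 1 was the highest library and KO replicate 8 lay below WT replicate 3. Nusap1, which stabilises spindle microtubules, had 16.4 and 6.99 in WT against 16.7 and 11.6 in KO.

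Mki67, the Ki-67 gene whose protein coats mitotic chromosomes and marks cycling cells, was the most abundant member. It had 224 and 147 in WT against 318 and 311 in KO, a mean of 185 ± 54.4 against 315 ± 4.59 (SD, n = 2), with no overlap (difference 0.79, SE 0.44, limma adjusted p = 0.926). Per kilobase of exon, its mean level of 18.4 in WT and 31.3 in KO was the highest in both groups. The next level per kilobase was that of Cdc20 in WT (10.9) and of Incenp in KO (13.7), and Cdc25c was lowest in both (0.983 and 1.38). Top2a, the DNA topoisomerase that untangles sister chromatids, had 118 and 55.0 in WT against 117 and 110.3 in KO. For Top2a, WT replicate 6 was low and the other 3 libraries lay close together.

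The KO libraries differed from each other for some members. Against the WT mean, the median member was 0.48 higher in KO replicate 1 and 0.44 higher in KO replicate 8, and 25 members were above the WT mean in both. In 4 members KO replicate 1 was above and KO replicate 8 below the WT mean (Cdc25c, Cenpe, Hmmr and Dlgap5), and in 6 it was the reverse (Cdk1, Ccna2, Aurka, Aurkb, Mad2l1 and Cdc20). Exact Poisson 95% intervals of the KO libraries did not overlap for 12 of 40 members. The median absolute gap between the KO libraries was 0.46 over the members and 0.64 over all genes tested. The ratio of Cenpe to Ccna2 within a library, a pair chosen after their values were seen, was 4.70 and 2.97 in WT against 10.2 and 0.949 in KO.

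**Figure D3:**
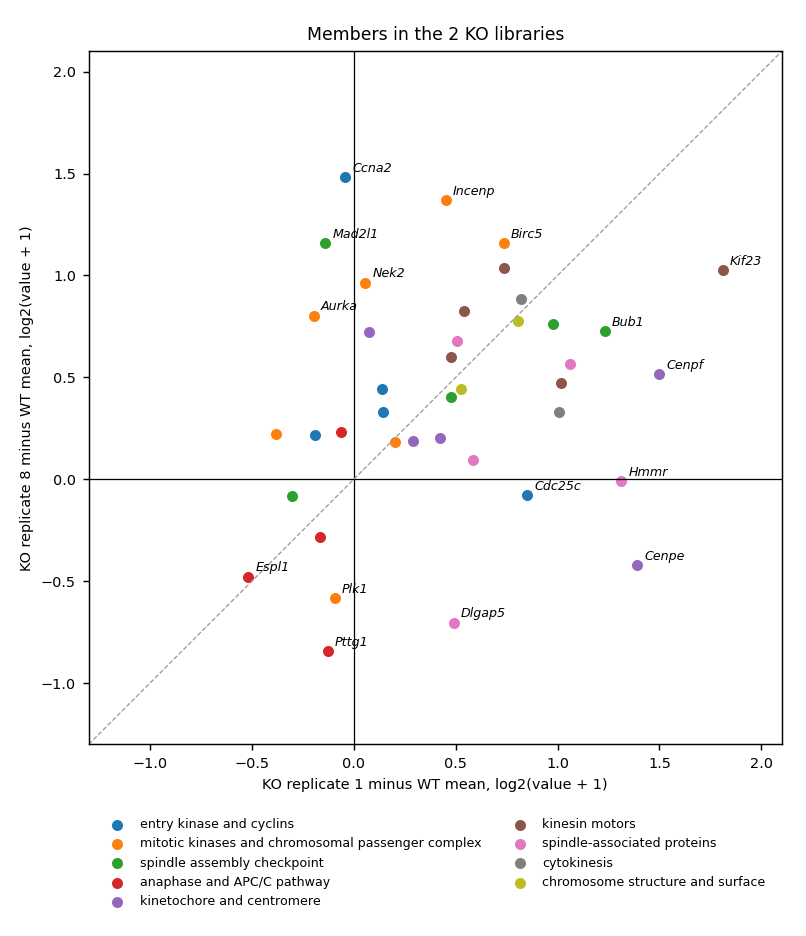
Each member's value in KO replicate 1 (x axis) and KO replicate 8 (y axis) minus the mean of the WT libraries, on the log2(value + 1) scale; points are genes, colours are roles and the dashed line marks equal differences. Of the 40 members, 25 are above the WT mean in both KO libraries, with Ccna2 and Mad2l1 high in KO replicate 8 alone and Cenpe and Hmmr high in KO replicate 1 alone.

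Of 5 further lists of mitotic machinery, 138 genes were tested and 93 were higher in KO (median 0.20), with 29 above (21.01%; 14.5% of all genes tested) and 5 below (3.62%; 19.3% of all genes tested) without overlap. None passed in limma, and 2 had an unadjusted p under 0.05. Other regulators of mitotic entry and exit (kinases, phosphatases, a cyclin and cofactors) were higher for 17 of 21 genes (median 0.38), condensin and cohesin genes for 15 of 21 (0.31), motors, spindle and centrosome genes for 28 of 42 (0.21), APC/C subunits and regulators for 10 of 17 (0.20) and other kinetochore and checkpoint genes for 23 of 37 (0.10). Ckap2l, a spindle protein gene, had 7.34 and 6.35 in WT against 21.8 and 13.7 in KO, and Smc4, a condensin subunit, had 34.0 and 19.7 in WT against 57.4 and 46.4 in KO. Ppp2r2d, a regulatory subunit of the phosphatase that opposes CDK1, had 8.49 and 8.90 in WT against 18.0 and 19.3 in KO. These 3 genes did not overlap between the groups, nor did Anapc11, the small RING subunit of the APC/C, which was lower in KO, with 10.8 and 16.5 in WT against 6.16 and 5.41 in KO. Gtse1, from the same list as Ckap2l, was also lower in KO without overlap, with 12.4 and 13.3 in WT against 7.48 and 5.67 in KO. All were named from the genes of smallest p in their lists, which hold others not named here.

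Foxm1 and Mybl2, regulators of the mitotic programme, overlapped between the groups. Foxm1, the forkhead factor of G2 and M genes, had 10.04 and 5.72 in WT against 9.02 and 27.1 in KO. Mybl2, the B-MYB subunit of MMB, had 21.4 and 6.04 in WT against 16.7 and 27.6 in KO. Both were highest in KO replicate 8 and lowest in WT replicate 6. Of the 24 FOXM1, MMB, DREAM, E2F, RB family and NF-Y genes tested, 15 were higher in KO (62.5%; 47.5% of all genes tested), with a median of 0.25. Without overlap, 2 lay above (8.33%; 14.5% of all genes tested) and 0 below (19.3% of all genes tested). Limma called 0 of the 24, with 0 at an unadjusted p under 0.05.

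Replication genes lay on both sides. Of 38 licensing and fork genes, 18 were higher and 20 lower in KO (median -0.08), 7 of them above and 10 below without overlap. These shares, 47.4% higher, 18.4% above and 26.3% below, stood beside 47.5%, 14.5% and 19.3% of all genes tested. Pcna, the sliding clamp, had 78.4 and 68.6 in WT against 41.1 and 33.2 in KO, Tk1, a thymidine kinase, had 28.6 and 19.7 in WT against 12.8 and 9.28 in KO, and Fen1, a flap endonuclease, had 30.1 and 19.1 in WT against 11.9 and 10.6 in KO. In all 3, named for the smallest p of their list, both KO libraries lay below both WT libraries, and none passed (limma adjusted p = 0.926 for each). The difference between the 2 lists was not tested. Among genes of G1 and S phase entry (cyclins, kinases, Dbf4, Skp2 and Myc) 7 of 13 were higher (median 0.01). Dbf4, the activator of the CDC7 kinase, had 17.8 and 10.8 in WT against 25.5 and 29.4 in KO. Cdk6, a partner of D-type cyclins, had 34.2 and 56.2 in WT against 53.4 and 229.9 in KO. Dbf4 was higher in KO without overlap, and Cdk6 was high in KO replicate 8 alone. Ccnd2, a D-type cyclin, had 141 and 296 in WT against 115 and 103 in KO. Dbf4, Cdk6 and Ccnd2 were named for the smallest p of their list. Of 7 CDK inhibitors 4 were higher and 3 lower in KO (median 0.33), and 4 overlapped. Cdkn1a, the p21 inhibitor of CDKs, had 47.3 and 57.5 in WT against 14.5 and 33.0 in KO, Cdkn2b, p15, had 25.9 and 10.5 in WT against 6.16 and 5.67 in KO, and Cdkn2a had 5.21 and 3.81 in WT against 18.0 and 6.44 in KO. In both KO libraries Cdkn1a and Cdkn2b were below, and Cdkn2a above, both WT libraries, 1 above and 2 below of the 7 (14.5% and 19.3% of all genes tested). These 3 are named for the smallest p of their list.

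**Figure D4:**
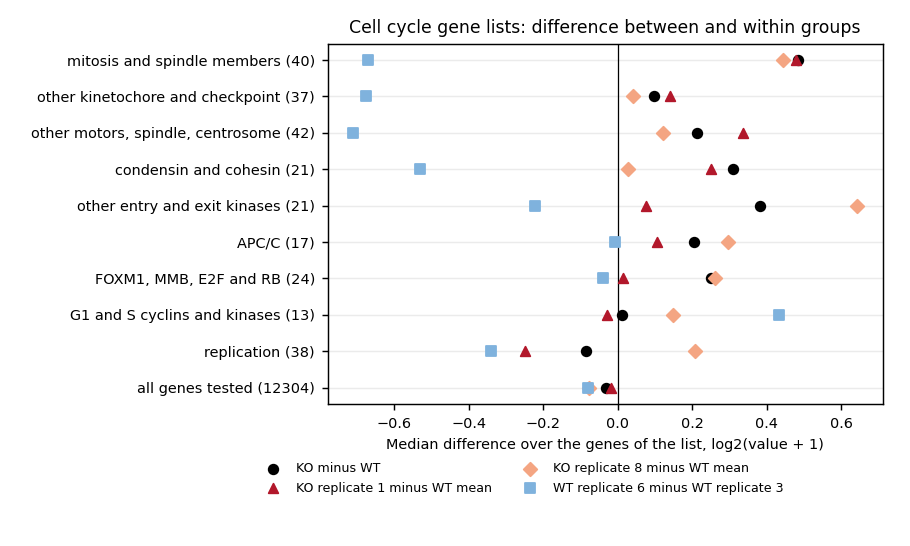
Median difference on the log2(value + 1) scale over the tested genes of each cell cycle list (number tested in brackets), for KO minus WT, for each KO library minus the WT mean and for WT replicate 6 minus WT replicate 3. For the 40 members the KO minus WT median is 0.48 and the gap between the WT libraries -0.67; for the 38 replication genes the medians are -0.08 and -0.34.

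Markers of cell types moved between the same libraries, and their part in the differences above was not tested. The summed value of 8 basal keratinocyte markers was 23838 and 22264 in WT and 22285 in KO replicate 1, but 5048 in KO replicate 8, with 2 of the 8 higher on average in KO. Krt5 and Krt14 weigh most in each of these sums. Krt5 was at 8370 and 10079 in WT against 8751 and 1057 in KO, and Krt14 at 11878 and 8730 against 7872 and 2122. Trp63 was at 235 and 407 in WT against 244 and 241 in KO, and Itga6 at 150 and 152 against 263 and 282, so not every basal marker was low in KO replicate 8. Suprabasal markers were lower in KO for 8 of 9 genes, with sums of 30872 and 13878 in WT against 9530 and 1325 in KO. Macrophage markers were higher in KO for 8 of 8 genes, with sums of 35.3 and 41.3 in WT against 90.6 and 189 in KO. KO replicate 8 also held the most fibroblast marker signal (855, against 100.3 to 242) and skeletal muscle marker signal (384, against 5.02 to 25.1), with 4 of 5 tested muscle genes but 1 of 7 fibroblast genes above both WT libraries in both KO libraries (14.5% of all genes tested). The 4 listed neutrophil markers summed to 275 and 197 in WT against 122 and 280 in KO, and the 6 endothelial markers to 22.8 and 33.0 in WT against 18.9 and 20.4 in KO. Of 11 T, B and plasma cell markers 1 was listed, Jchain, at 0 in both WT libraries and 7.92 and 7.99 in KO.

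Gene length moved with the difference as well, in KO replicate 1 more than in KO replicate 8. Across the 40 members, the KO minus WT difference and exon length had a Spearman correlation of 0.309, against 0.169 across 12281 genes tested, as a description over genes that share the same 4 libraries. Against the WT mean it was 0.426 for KO replicate 1 and 0.0286 for KO replicate 8 over the members, and 0.189 and 0.1098 over all genes. Of the 7 members under 3000 bases 3 were higher in KO (median -0.08), where the 3549 genes of that class had a median of -0.18. All 19 members from 3000 to under 6000 bases were higher (median 0.59), where 47.6% of 4778 genes were (median -0.03). Of the 14 members of 6000 bases or more 11 were higher (median 0.50), against 55.5% of 3954 genes (median 0.07). The part of length in these differences was not tested.

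Some members share exon bases with a neighbour. In the GENCODE M21 annotation 11 members overlap a gene on the opposite strand and Top2a overlaps a small nucleolar RNA on its own strand, while Ccnb1, Ccnb2 and Kif4 have pseudogene copies by name. The sources used here do not say whether reads were counted by strand, so these values are uncertain. Ube2c overlaps Tnnc2, a troponin of skeletal muscle, which had 12.6 in KO replicate 8 and 0.220 to 0.386 in the other libraries. Cdc20 overlaps Elovl1, a fatty acid elongase, with 28.2 and 19.4 in WT against 10.1 and 4.64 in KO.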

How the data were processed

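Per the labels' protocols, Trizol RNA from 4 esophageal tumours went into TruSeq libraries. The deposited signal is a scaled read value per gene and library; the file headers give library names alone. Each value is a whole multiple of 1 step per library, and dividing by it gave whole reads for 100% of values (tolerance 0.001). DESeq and genome build mm9 appear in the submitters' processing notes without a role or version. The sources used here do not name the aligner, counter or annotation. Log2 fold changes and p-values (raw and adjusted) of the authors' own comparison are deposited beside them, per the file headers, and are cited as the authors' deposited table.

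Groups follow the labels. On the log2(value + 1) scale, which understates folds of low genes, genes that reached 1 in 2 or more libraries were fitted with limma 3.58.1 in R 4.3.3 (trended prior, genotype as the sole term, two-sided, Benjamini-Hochberg over 12304 genes, threshold 0.05). Lists are described by counts and medians, with no test of a list. The members, lists and alternatives were chosen with earlier results of these data known. All members may be named, of each other pathway list up to 3 genes by smallest p plus Foxm1, Mybl2 and Cdkn1a, and the cell type markers; Tnnc2 and Elovl1 were named for overlapping a member. Within-library ratios were chosen after the values were seen. Alternatives were quantile normalization, TMM of nuclear protein-coding genes, no trend, no filter, a pseudocount of 0.1, edgeR 4.0.16 and DESeq2 1.42.0 on the recovered reads, and leaving out each library. The fits were tested on simulated data with planted folds larger than that of any member, so those runs do not cover differences of the members' size. Protein motifs were not analysed here. Exon lengths are unions of GENCODE M21 exons, and promoters are from RefSeq on GRCm38.p6, which is not the build of the files, so no coordinates of the files were joined. Intervals cover counting error only, since PCR reads that carry no molecular identifier are not independent.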

Additional observations from a re-analysis of the deposited data

How the results depend on the processing

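In every alternative run, with each library left out included, 0 of the 40 members passed the threshold. The median difference of the members ranged from 0.48 to 0.56 over the other scalings, filters, pseudocount and tools, and from 0.13 to 0.87 over the libraries left out, lowest without WT replicate 6. Genes called over the whole table were 0 higher and 1 lower, S100a14, in limma (646 at an unadjusted p under 0.05). Without a filter 2 were lower, and 0 were lower in edgeR's test (520 at an unadjusted p under 0.05) or at a pseudocount of 0.1 (592), while DESeq2 called 22 higher and 32 lower (0.188% and 0.274%). Over the libraries left out, 0 to 203 genes were higher and 0 to 307 lower, highest without KO replicate 1; the cause was not tested. A lone library in such a fit is assumed to vary like the other group. The ratio of summed member levels was 1.46, 1.51 with TMM and 1.97 per protein-coding read. Dlgap5, at -0.11, turned to 0.014 in edgeR and 0.021 in DESeq2. Of the 40 members, 19 had a difference above 0 and 4 below 0 whichever library was left out, several of them close to 0 in 1 fit: Nek2 0.057 to 0.96, Bub1 0.73 to 1.23, Bub1b 0.044 to 0.84, Bub3 -0.37 to -0.017, Ttk 0.58 to 1.16, Ube2c -0.39 to -0.065, Pttg1 -0.84 to -0.13, Espl1 -0.92 to -0.075, Cenpa 0.076 to 0.72, Cenpf 0.51 to 1.499, Ndc80 0.064 to 0.56, Nuf2 0.027 to 0.45, Kif11 0.20 to 1.58, Kif20a 0.17 to 1.20, Kif4 0.18 to 1.31, Tpx2 0.28 to 0.91, Prc1 0.30 to 1.32, Anln 0.28 to 1.06, Ect2 0.33 to 1.38, Mki67 0.49 to 1.09, beside the ranges given above for Kif23, Birc5 and Incenp. The other 17 changed direction in at least 1 such fit, with these ranges of the log2 difference: Cdk1 -0.19 to 0.22, Ccnb1 -0.043 to 0.52, Ccnb2 -0.000201 to 0.58, Ccna2 -0.042 to 1.48, Cdc25c -0.078 to 0.85, Plk1 -0.82 to 0.14, Aurka -0.20 to 0.80, Aurkb -0.56 to 0.41, Cdca8 -0.15 to 0.54, Mad2l1 -0.14 to 1.16, Cdc20 -0.36 to 0.53, Cenpe -0.42 to 1.39, Kif2c -0.23 to 1.31, Nusap1 -0.22 to 0.90, Hmmr -0.073 to 1.38, Dlgap5 -0.70 to 0.49, Top2a -0.061 to 1.03. No paired analysis was possible because the groups share no replicate number. Low counts limit the smaller members: 3 reads equal a scaled value of 0.579 to 0.953.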
